A study of Mus musculus with 9 samples.

Results

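The 10 genes described here encode enzymes and complex subunits that set DNA methylation and Polycomb marks and that are known to control the self-renewal of hematopoietic stem cells (HSCs). They are the de novo DNA methyltransferases Dnmt3a and Dnmt3b, the methylcytosine dioxygenases Tet1, Tet2 and Tet3, the Polycomb repressive complex 2 (PRC2) genes Ezh1, Ezh2 and Eed, the PRC1 gene Bmi1 and the Polycomb-related gene Asxl1. They were taken by name from 22180 genes on the array. A probe set is a group of probes read as 1 value. Each of the 10 genes had 1 probe set annotated with its symbol alone, and all 10 were among the 16636 genes that passed a filter on low values and were tested.

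HSCs were sorted from mice aged 6 to 8 months in which Bcl11a, a zinc finger repressor gene, could be deleted, and 1 array was run per replicate, 9 in all. The KO group (3 arrays) carried 2 floxed Bcl11a alleles and Mx1-Cre, the Het group (3 arrays) carried 1 floxed and 1 wild-type allele and Mx1-Cre, and the WT group (3 arrays) carried 2 floxed alleles without Cre. All mice received 5 doses of poly(I:C), which induces interferon and thereby the Mx1 promoter that drives Cre; it responds to interferon in many cell types, not in HSCs alone. Since WT mice lacked Cre, deletion of Bcl11a and presence of Cre cannot be told apart when KO or Het cells are set against WT cells, whereas KO and Het cells both carried Cre. The sort took lineage-negative, Sca-1- and Kit-positive marrow cells that had CD150 and lacked CD48 and Flt3, with a YFP-positive or YFP-negative fraction, and which fraction went on which array is not stated in the labels.

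DNA methylation is laid down on unmethylated CpG sites by Dnmt3a and Dnmt3b, copied to new strands by Dnmt1 and its partner Uhrf1, and removed by way of 5-hydroxymethylcytosine, which the Tet enzymes make. PRC2 methylates a lysine of the histone H3 tail through Ezh1 or Ezh2, each of which needs Eed and Suz12 for activity, and PRC1, which holds Bmi1 in some of its forms, ubiquitinates histone H2A. Asxl1 is a cofactor of the deubiquitinase Bap1 and also binds PRC2. In mice, loss of Dnmt3a or Tet2 expands HSCs, loss of Bmi1 exhausts them, and human DNMT3A, TET2 and ASXL1 are the genes most often mutated in clonal hematopoiesis.

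Both enzyme classes of DNA methylation act on CpG sites, so the promoter windows of 4 genes are shown with every CG in capitals. Dnmt3b, Tet1 and Tet3 are shown because their KO and WT arrays did not overlap, and Tet2 because it had the most CG sites of the 10 genes. Each window is the 250 bases before the gene's start in RefSeq on build GRCm38.p6, 5′ to 3′ on the gene's own strand.
Dnmt3b (chr2:153649199-153649448, plus strand): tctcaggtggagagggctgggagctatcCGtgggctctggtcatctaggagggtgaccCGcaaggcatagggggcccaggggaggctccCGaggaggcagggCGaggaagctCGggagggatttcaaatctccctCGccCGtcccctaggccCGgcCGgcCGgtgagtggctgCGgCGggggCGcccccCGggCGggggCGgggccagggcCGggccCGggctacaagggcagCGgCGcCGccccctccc
Tet1 (chr10:62887325-62887574, minus strand): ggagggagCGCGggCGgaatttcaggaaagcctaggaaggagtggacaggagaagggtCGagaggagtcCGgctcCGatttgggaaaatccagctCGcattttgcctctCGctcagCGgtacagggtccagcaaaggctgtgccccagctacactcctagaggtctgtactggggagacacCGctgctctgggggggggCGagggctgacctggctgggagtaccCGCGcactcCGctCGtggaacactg
Tet3 (chr6:83441679-83441928, minus strand): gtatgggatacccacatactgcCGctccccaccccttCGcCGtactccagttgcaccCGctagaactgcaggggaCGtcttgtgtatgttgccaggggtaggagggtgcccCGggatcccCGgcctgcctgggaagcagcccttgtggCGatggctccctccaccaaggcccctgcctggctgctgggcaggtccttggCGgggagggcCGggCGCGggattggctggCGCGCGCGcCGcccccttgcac
Tet2 (chr3:133544391-133544640, minus strand): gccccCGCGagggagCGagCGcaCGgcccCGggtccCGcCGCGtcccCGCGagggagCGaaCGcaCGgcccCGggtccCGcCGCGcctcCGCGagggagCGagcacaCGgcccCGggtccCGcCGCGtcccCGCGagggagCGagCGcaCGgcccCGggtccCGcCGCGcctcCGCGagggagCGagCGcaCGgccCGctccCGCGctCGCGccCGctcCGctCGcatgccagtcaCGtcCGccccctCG
These windows held 21 CG sites for Dnmt3b, 15 for Tet1, 17 for Tet3 and 51 for Tet2. All 10 genes matched the RefSeq table, with 12 windows because Dnmt3a has 3 starts. Their windows held 11 (Asxl1) to 51 (Tet2) CG sites with a median of 19, against a median of 6 over 32851 windows of the same length, and all 12 lay above that median. DNA methylation itself was not measured.

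BCL11A protein is known to bind the sequence TGACCA in the fetal globin promoters. Searched on both strands (TGACCA or TGGTCA), this motif was found in 1 of the 12 windows, that of Dnmt3b, 213 bases before the start, and in 11.4% of all windows. The stretch around it, at chr2:153649216-153649261 on the plus strand, is shown with the motif in capitals.
Dnmt3b motif: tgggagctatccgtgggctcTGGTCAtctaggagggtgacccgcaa
A match to these letters is a description of the sequence and not a measured binding site.

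Values are log2 expression summaries of 1 probe set, given as mean ± SD over 3 arrays of a genotype, and levels of different genes are not compared because each probe set has its own response. Array medians lay between 3.95 and 4.15. Among the 9 arrays, WT replicate 1 stood apart, with the narrowest interquartile range (2.22, against up to 2.83) and the lowest correlation with the others (median Pearson's r 0.861 across probe sets). Bcl11a, the targeted gene, read 7.82, 7.90 and 8.66 on KO arrays, 8.34, 8.37 and 8.89 on Het arrays and 8.73, 8.81 and 8.38 on WT arrays. The means were 8.13 ± 0.464 in KO, 8.53 ± 0.309 in Het and 8.64 ± 0.229 in WT cells (KO minus WT −0.51; limma adjusted p = 0.655). With 8.66, the library labelled KO replicate 3 was as high as WT libraries, so KO averages include an array on which the probe set showed no lower Bcl11a; whether its probes lie in the deleted part was not checked here. Xist and Y-linked genes showed 1 female mouse of 3 in the KO and Het groups and 2 of 3 in the WT group. On arrays without the transcript, Y-linked genes read 2.22 to 3.32 and Xist 3.58 to 4.22, which gives a rough range for absent transcripts. Of the 90 values of the 10 genes, 88 lay above it. The range does not part present from absent transcripts. Uty, a Y-linked gene, read within it on the male arrays WT replicate 2 (3.86) and Het replicate 2 (4.18).

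The sort label was checked against marker genes. The mean of 10 HSC markers lay between 7.48 and 8.11 on KO arrays, between 7.29 and 7.68 on Het arrays and between 5.99 and 7.03 on WT arrays, with Kit, the stem cell factor receptor, at 8.75 to 10.01 on all arrays. Markers of other cells were mixed, and some differed between KO and WT arrays. Of 5 markers of progenitors outside the sort, Cd34 read 9.08 to 10.09 on KO and 7.79 to 8.07 on WT arrays. Cd52 read 3.88 to 4.87 on KO and 4.89 to 7.59 on WT arrays. Flt3 read 3.55 to 4.03 and 3.99 to 5.36, and Cd48 3.92 to 4.71 and 3.63 to 4.83, in the same order. Klrb1c, an NK cell marker, read 6.04 to 7.07 on KO and 3.77 to 4.95 on WT arrays. Nkg7, from the same T and NK list, went the other way, with 4.81 to 5.08 on KO and 5.96 to 7.87 on WT arrays. No tested gene of the progenitor or T and NK lists was called in limma. Of 5 B cell markers, Cd79a, Ms4a1 and Ebf1 read within or below the range of absent transcripts on every array, while Cd79b (4.47 to 6.63) and Pax5 (4.29 to 5.14) read above it. Of 6 T and NK cell markers, Cd3e, Cd3g and Gzma read within or below that range and Nkg7 (4.81 to 7.87) above it on every array. Of 6 markers of stroma and endothelium, Lepr (1.58 to 2.28) read within or below it and Pecam1 (4.85 to 7.63) and Cxcl12 (4.27 to 4.89) above, on every array. Pecam1 read 7.30 to 7.63 on KO and 4.85 to 5.87 on WT arrays. Kdr, an endothelial receptor, read 4.23 to 5.85 on KO arrays and 3.53 to 3.94, within the absent range, on WT arrays. Of the 5 tested genes of this list 2 were higher and 3 lower in KO cells, and 0 were called in limma. Erythroid and megakaryocytic transcripts were present, with Pf4 at 6.58 to 9.60 and Car1 at 5.16 to 9.49, and the mean of 6 such markers was 5.26 to 6.80 on KO, 5.57 to 6.58 on Het and 5.76 to 6.37 on WT arrays. Myeloid transcripts were present: Lyz2, lysozyme, read 7.58 to 9.46, and the mean of 8 myeloid markers was 5.56 to 6.01 on KO, 5.52 to 6.35 on Het and 5.99 to 6.69 on WT arrays. Between KO and WT cells, 10 of the 10 HSC markers were higher, with a median difference of 1.39 and 0 called in limma (smallest adjusted p = 0.0566). Of the 8 myeloid markers 6 were lower and 2 higher, with a median of −0.35 and 0 called. S100a8 read 2.31 to 6.74 on KO and 8.42 to 8.97 on WT arrays. S100a9 read 6.12 to 7.22 and 8.06 to 9.16, and Lyz2 7.58 to 8.80 and 9.20 to 9.46, in the same order. Itgam went the other way, with 4.46 to 6.10 on KO and 3.57 to 4.08 on WT arrays. KO and WT arrays overlapped for the rest of the 8. The part of these markers in the values of the 10 genes was not tested. In bulk samples, fewer cells of a type and less RNA per cell cannot be told apart.

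Between KO and WT cells, 7 of the 10 genes were higher and 3 lower, and none passed the test. In limma over 16636 genes, 7 genes (0.0421%) had an adjusted p under 0.05, and the adjusted p of the 10 genes ran from 0.563 (Ezh1) to 0.987 (Dnmt3a). At an unadjusted p under 0.05, 2 of the 10 differed, Ezh1 and Dnmt3b, both higher in KO cells, where 8.21% of all tested genes did. The median of the 10 differences was 0.34 on the log2 scale, against −0.04 over all tested genes, of which 45.4% were higher in KO cells. It was 0.14 without WT replicate 1, and 0.19 with 6 genes higher and 4 lower after a further quantile normalization. Without each other KO or WT array it lay between 0.21 (without KO replicate 1) and 0.56 (without KO replicate 2), and without WT replicate 2 the genes were 5 higher and 5 lower. KO and WT arrays did not overlap for 3 of the 10 genes, Dnmt3b and Tet3 (higher in KO cells) and Tet1 (lower in KO cells), against 13.8% of all tested genes (6.51% higher, 7.32% lower). With 10 genes, these counts describe the list and show nothing particular to it. Leaving out an array can only keep or raise this count. It was 3 without WT replicate 1 (20.6% of all tested genes) and 6 without WT replicate 2 (21.9%), where Tet2, Ezh1 and Asxl1 joined. Without KO replicate 3, whose Bcl11a reading went against its label, it was 4 (31.4%), with Ezh1 added. Dnmt3b, Tet3 and Tet1 each had a two-sided exact permutation p of 0.1, the smallest that 3 arrays against 3 allow.

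**Figure D1:**
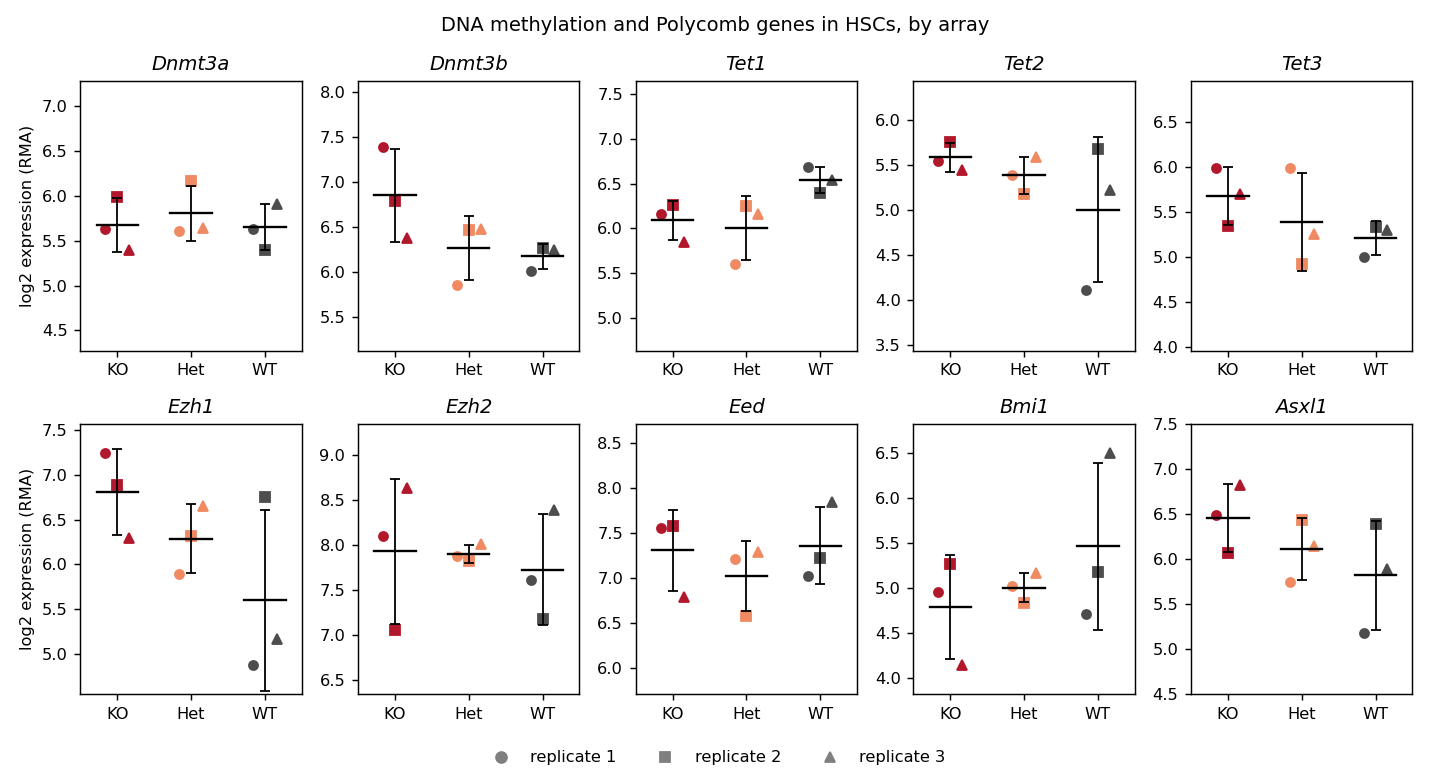
Log2 expression of the 10 genes on each array (y axis, RMA values, each panel spanning 3 log2 units) in KO, Het and WT HSCs; points are arrays, the horizontal bar is the mean and the whiskers the SD of 3 arrays. All KO points of Dnmt3b lie above all WT points, all KO and Het points of Tet1 lie below all WT points, and the WT points of Ezh1 and Bmi1 are spread most widely.

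Between Het and WT cells 7 of the 10 genes were higher and 3 lower, and none passed the test. Of all tested genes 48.3% were higher in Het cells. No gene passed in limma (0 of 16636, 0%; smallest adjusted p = 0.559), and 813 (4.89%) had an unadjusted p under 0.05, none of them among the 10. The differences of the 10 genes ran from −0.53 (Tet1) to 0.69 (Ezh1), with a median of 0.17 against −0.01 over all tested genes. Arrays of Het and WT cells did not overlap for Tet1 alone of the 10 genes, lower in Het cells, against 8.41% of all tested genes (3.9% lower). Between KO and Het cells, which share Cre, no gene passed (0%; smallest adjusted p = 0.0881), and 759 (4.56%) had an unadjusted p under 0.05, again none of the 10. Of the 10 genes 8 were higher in KO cells, as were 47.0% of all tested genes. The median difference of the 10 was 0.24 (−0.02 over all tested genes). Arrays overlapped for each of the 10, where 9.82% of all tested genes did not overlap. The F test for any difference among the 3 genotypes in limma called 0 genes, with 984 (5.91%) at an unadjusted p under 0.05, and gave the 10 genes adjusted p from 0.851 (Ezh1) to 0.975 (Ezh2). The 3 comparisons share arrays and are not independent.

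**Figure D2:**
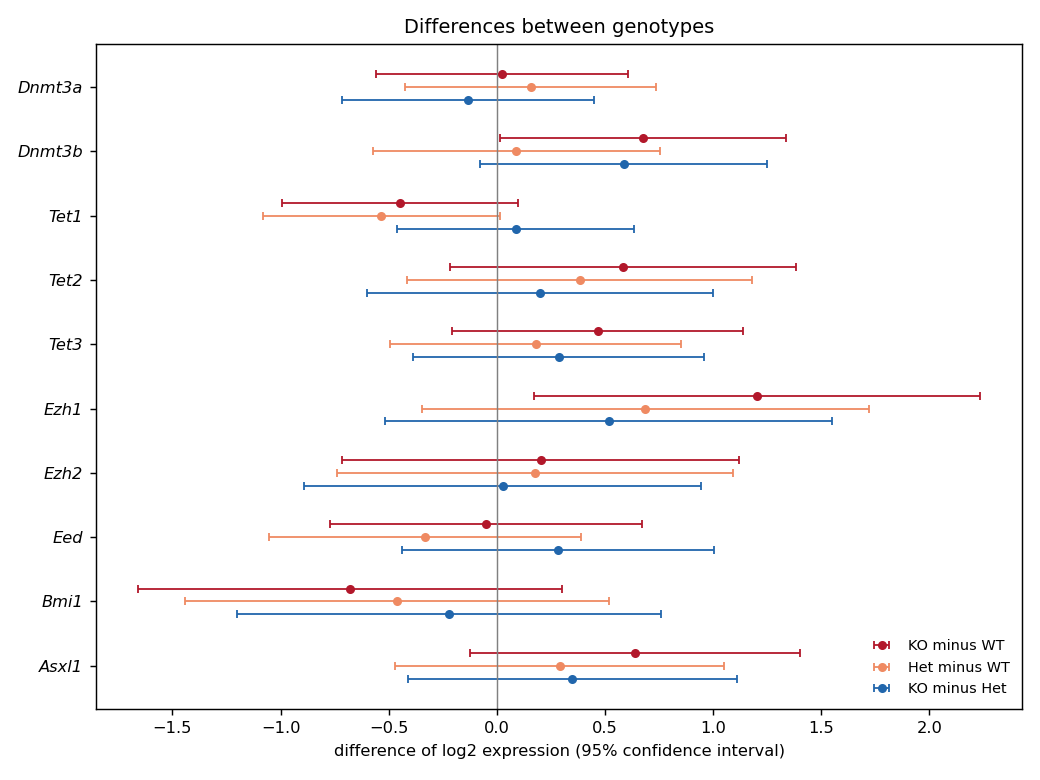
Differences of log2 expression with 95% confidence intervals from limma (x axis) for each of the 10 genes (y axis), KO minus WT, Het minus WT and KO minus Het; the vertical line marks 0. Only the KO minus WT intervals of Dnmt3b and Ezh1 lie wholly on one side of 0, before any adjustment over the genes tested.

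The order KO, Het, WT from highest to lowest mean was seen for 6 of the 10 genes (Dnmt3b, Tet2, Tet3, Ezh1, Ezh2 and Asxl1), an order that 19.0% of all tested genes had. Bmi1 had the opposite order, Tet1 and Eed were highest in WT and lowest in Het cells, and Dnmt3a was highest in Het and lowest in WT cells. Neighbours in these orders overlapped in every case but KO and WT for Tet1.

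Dnmt3b, one of the de novo methyltransferases, read 7.39, 6.78 and 6.37 on the KO arrays, 5.85, 6.46 and 6.47 on the Het arrays and 6.01, 6.26 and 6.24 on the WT arrays. All KO arrays were above all WT arrays, with KO replicate 1 the highest of the 9, while Het arrays spanned the WT range. Dnmt3b averaged 6.85 ± 0.513 in KO, 6.26 ± 0.355 in Het and 6.17 ± 0.139 in WT cells. KO cells were 1.60-fold higher than WT cells (log2 difference 0.68, SE 0.298, 95% interval 0.01 to 1.34; limma adjusted p = 0.595) and 1.50-fold higher than Het cells (0.59, interval −0.08 to 1.25; adjusted p = 0.998). The gap between the lowest KO and the highest WT array was 0.11. Without KO replicate 3 the KO minus WT difference was 0.915, without KO replicate 1 it was 0.405 and without WT replicate 1 it was 0.60. Against Het cells, the KO difference was 0.315 without KO replicate 1 and 0.825 without KO replicate 3, and leaving out Het replicate 1 gave 0.38. Within male mice KO minus WT was 0.83 (2 KO arrays, 1 WT array) and within female mice 0.25 (1 KO array, 2 WT arrays). KO minus Het was 0.93 within male mice (2 arrays each) and −0.10 within female mice (1 array each).

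Dnmt3a, the methyltransferase whose loss expands HSCs, read 5.63, 5.99 and 5.39 on KO, 5.61, 6.16 and 5.64 on Het and 5.63, 5.40 and 5.91 on WT arrays. The 3 groups overlapped, with the lowest value on a KO and the highest on a Het array. The means were 5.67 ± 0.302 in KO, 5.80 ± 0.309 in Het and 5.65 ± 0.255 in WT cells, and the KO minus WT difference was 0.02 with an interval of −0.56 to 0.61 (limma adjusted p = 0.987). After a further quantile normalization it was −0.17, and its sign is not settled.

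Tet1 read 6.16, 6.26 and 5.85 on KO arrays, 5.60, 6.25 and 6.16 on Het arrays and 6.68, 6.39 and 6.54 on WT arrays. Every KO and every Het array was below every WT array, by a gap of 0.13 for KO and 0.14 for Het; 3.06% of all tested genes had KO and Het arrays both apart from the WT arrays on the same side. The means were 6.09 ± 0.214 in KO, 6.00 ± 0.352 in Het and 6.54 ± 0.145 in WT cells. The difference was −0.45 for KO minus WT (SE 0.246, interval −0.99 to 0.10; limma adjusted p = 0.652) and −0.53 for Het minus WT (interval −1.08 to 0.01; adjusted p = 0.992). Both use the same WT arrays. Without KO replicate 3 the KO minus WT difference was −0.33, and without WT replicate 1 it was −0.375. KO minus Het was 0.09 (interval −0.46 to 0.63). Within female mice KO minus WT was −0.76 and within male mice −0.18, and Het minus WT was −0.45 within female and −0.47 within male mice.

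Tet2, the family member most often mutated in human blood cancers, read 5.55, 5.76 and 5.45 on KO, 5.39, 5.18 and 5.59 on Het and 4.11, 5.68 and 5.22 on WT arrays. WT replicate 1 was the lowest of the 9 arrays and within the absent-transcript range, and the groups overlapped. Means were 5.59 ± 0.158 in KO, 5.39 ± 0.205 in Het and 5.0 ± 0.807 in WT cells. KO minus WT was 0.58 (interval −0.21 to 1.38; limma adjusted p = 0.677), and it was 0.14 without WT replicate 1 and 0.92 without WT replicate 2. Within female mice it was 0.79 and within male mice −0.03.

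Tet3 read 5.99, 5.35 and 5.70 on KO, 5.99, 4.93 and 5.26 on Het and 5.0, 5.34 and 5.30 on WT arrays. KO arrays were above WT arrays by a gap of 0.01, which was lost after a further quantile normalization, while Het arrays covered the span of both. Means were 5.68 ± 0.320 in KO, 5.39 ± 0.542 in Het and 5.21 ± 0.186 in WT cells, with a KO minus WT difference of 0.47 (SE 0.303, interval −0.21 to 1.14; limma adjusted p = 0.697). It was 0.46 without KO replicate 3 and 0.36 without WT replicate 1. Within female mice it was 0.55 and within male mice 0.33.

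Ezh1, the PRC2 methyltransferase that is kept in cells that do not divide and that adult mouse HSCs need, showed the largest KO minus WT difference of the 10 genes. It read 7.24, 6.88 and 6.29 on KO, 5.89, 6.32 and 6.65 on Het and 4.88, 6.75 and 5.17 on WT arrays. WT replicates 1 and 3 were the lowest of the 9 arrays, while WT replicate 2 lay inside the KO range, so the groups overlapped. Ezh1 averaged 6.80 ± 0.480 in KO, 6.29 ± 0.381 in Het and 5.60 ± 1.01 in WT cells, a 2.30-fold higher level in KO than in WT cells (log2 difference 1.20, SE 0.465, interval 0.17 to 2.24; limma adjusted p = 0.563; exact permutation p = 0.2). Without KO replicate 3 the difference was 1.46, without WT replicate 1 it was 0.84, and without WT replicate 2 it was 1.78. Het minus WT was 0.69 (interval −0.35 to 1.72), and it was 0.33 without WT replicate 1 and 1.26 without WT replicate 2. Within female mice KO minus WT was 1.27 and within male mice 0.31.

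Ezh2, the PRC2 methyltransferase of dividing cells, read 8.10, 7.05 and 8.63 on KO, 7.87, 7.82 and 8.01 on Het and 7.61, 7.17 and 8.39 on WT arrays. KO and WT arrays were widely scattered, and all Het arrays lay within the span of each. Means were 7.93 ± 0.804 in KO, 7.90 ± 0.0985 in Het and 7.72 ± 0.618 in WT cells, and KO minus WT was 0.20 (interval −0.71 to 1.12; limma adjusted p = 0.892). The mean of 15 proliferation genes, given because Ezh2 is known to follow cell division, was 7.04 to 7.55 on KO, 7.01 to 7.62 on Het and 7.06 to 7.72 on WT arrays. In each of the 3 genotypes the array with the lowest Ezh2 value, replicate 2, also had the lowest proliferation mean, and the array with the highest, replicate 3, had the highest. Replicate 2 was male and replicate 3 female in each genotype. KO minus WT of Ezh2 was 0.63 within female and 0.405 within male mice, and 0.43 with sex as a term. The part of cell division in the Ezh2 values was not tested, nor was it told apart from sex.

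Eed, the PRC2 subunit that binds the methylated lysine, read 7.56, 7.58 and 6.79 on KO, 7.21, 6.58 and 7.29 on Het and 7.02, 7.22 and 7.84 on WT arrays. The groups overlapped, with the lowest value on a Het and the highest on a WT array. Means were 7.31 ± 0.450 in KO, 7.03 ± 0.389 in Het and 7.36 ± 0.428 in WT cells, and KO minus WT was −0.05 (interval −0.77 to 0.67; limma adjusted p = 0.972). Its sign turned without KO replicate 3 (0.21) and without WT replicate 3 (0.19).

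Bmi1, the PRC1 subunit that represses the Cdkn2a locus in HSCs, read 4.95, 5.26 and 4.14 on KO, 5.02, 4.83 and 5.16 on Het and 4.71, 5.18 and 6.50 on WT arrays. WT replicate 3 was far above the other 8 arrays, which lay between 4.14 and 5.26, and KO replicate 3 lay within the absent-transcript range. Bmi1 averaged 4.78 ± 0.578 in KO, 5.0 ± 0.166 in Het and 5.46 ± 0.928 in WT cells, with a KO minus WT difference of −0.68 (SE 0.441, interval −1.66 to 0.30; limma adjusted p = 0.697). Without WT replicate 3 it was −0.16 and without KO replicate 3 it was −0.36, while without WT replicate 1 it was −1.06 and without KO replicate 2 it was −0.92. Within female mice it was −1.47 and within male mice −0.08.

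Asxl1 read 6.49, 6.07 and 6.82 on KO, 5.75, 6.44 and 6.14 on Het and 5.18, 6.39 and 5.89 on WT arrays. KO replicate 3 was the highest and WT replicate 1 the lowest of the 9, and the groups overlapped through WT replicate 2. Means were 6.46 ± 0.376 in KO, 6.11 ± 0.346 in Het and 5.82 ± 0.608 in WT cells, and KO minus WT was 0.64 (interval −0.12 to 1.40; limma adjusted p = 0.648). Without WT replicate 1 it was 0.32 and without WT replicate 2 it was 0.925. Within female mice it was 1.29 and within male mice −0.11.

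Single arrays thus carried much of the spread. WT replicate 1 was the lowest of the 9 arrays for Tet2, Ezh1 and Asxl1 and the highest for Tet1, and it was also the lowest for the mean of the HSC markers, at 5.99. KO replicate 1 was the highest for Dnmt3b and Ezh1 and shared the highest value of Tet3 with Het replicate 1, and there the HSC marker mean was highest too, at 8.11. The within-group SD of the 10 genes ran from 0.252 (Tet1) to 0.680 (Ezh1) with a median of 0.441, against a median of 0.368 over all tested genes. Tet1 and Dnmt3a were the steadiest of the 10, and Ezh1, Bmi1 and Ezh2 the most variable.

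**Figure D3:**
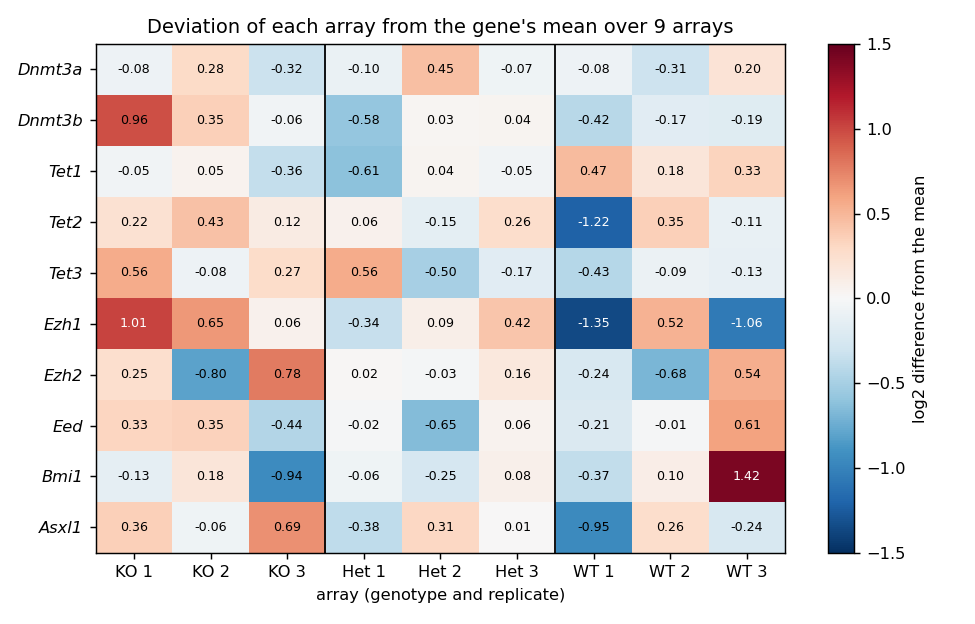
Deviation of each array (x axis, genotype and replicate) from the gene's own mean over 9 arrays for each of the 10 genes (y axis), in log2 units as coloured and printed. The darkest cells are Bmi1 on WT replicate 3 (1.42) and Ezh1 and Tet2 on WT replicate 1 (−1.35 and −1.22).

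Since an array that reads high or low overall can move all genes, members of a family, in pairs chosen after their values were seen, were also compared on the same array. The difference between 2 probe sets has no meaning as a level, but its change between genotypes has. Tet1 minus Tet2 was 0.61, 0.50 and 0.40 on KO, 0.21, 1.07 and 0.57 on Het and 2.57, 0.71 and 1.32 on WT arrays. Tet1 minus Tet3 was 0.17, 0.91 and 0.15 on KO, −0.39, 1.32 and 0.90 on Het and 1.68, 1.05 and 1.24 on WT arrays. In both, all KO arrays lay below all WT arrays: KO minus WT was −1.03 for Tet1 relative to Tet2 and −0.91 for Tet1 relative to Tet3. Without WT replicate 1 these were −0.51 and −0.735, and without each other KO or WT array they ran from −1.44 to −0.98 and from −1.16 to −0.78. Leaving out an array cannot bring overlap between groups that do not overlap, so it was no check of the overlap. The exact permutation p was 0.1 for each, the smallest possible, and 0.48 after Benjamini-Hochberg adjustment over the 12 comparisons made (4 pairs, 3 contrasts). For Tet1 minus Tet3 the lack of overlap and the p of 0.1 follow from the single genes and are no separate check. KO arrays lay below all WT arrays for Tet1 and above them for Tet3. Dnmt3b minus Dnmt3a averaged 1.18 ± 0.514 in KO and 0.52 ± 0.293 in WT cells (exact permutation p = 0.2), and Ezh1 minus Ezh2 averaged −1.12 ± 1.11 in KO and −2.12 ± 1.50 in WT cells (exact permutation p = 0.4), with overlap in both. Without 1 KO or WT array the KO minus WT difference ran from 0.36 to 0.85 for Dnmt3b minus Dnmt3a and from 0.45 to 1.85 for Ezh1 minus Ezh2.

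**Figure D4:**
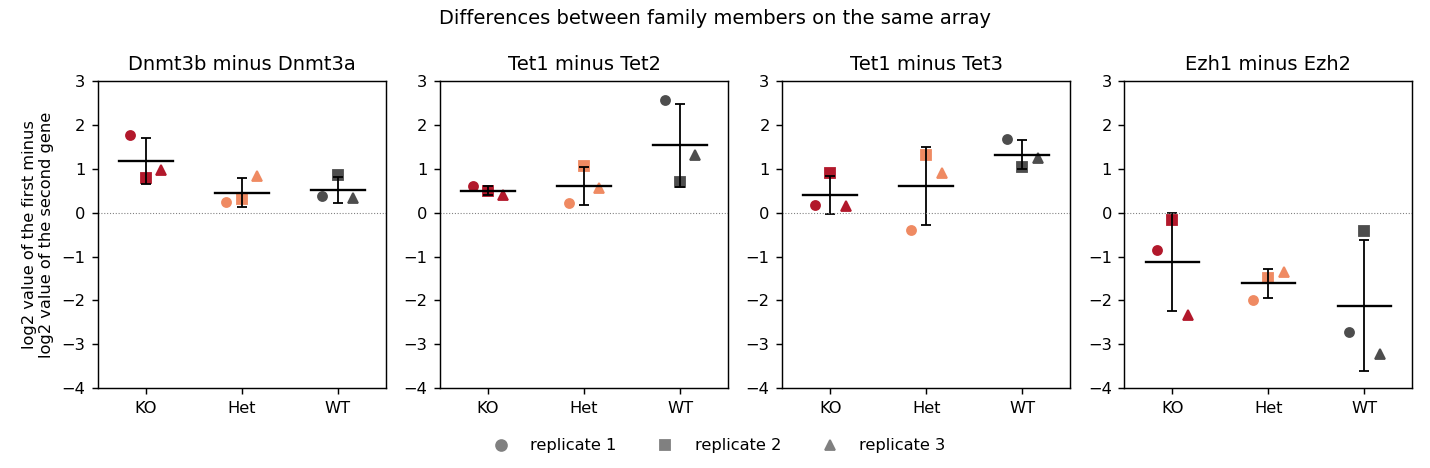
Difference between 2 genes of a family on the same array (y axis, log2 units) in KO, Het and WT HSCs; points are arrays, bars the mean and whiskers the SD of 3 arrays. The KO points of both Tet1 panels lie below all WT points, between 0.40 and 0.61 for Tet1 minus Tet2, and the other panels overlap.

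The wider machinery was read from lists of textbook members. Of 10 tested genes for copying, reading or opposing DNA methylation, 6 were higher and 4 lower in KO than in WT cells and 0 were called by limma, nor did any reach an unadjusted p under 0.05 (median difference 0.03). Dnmt1, the maintenance methyltransferase, read 8.44 ± 0.268 in KO, 8.49 ± 0.208 in Het and 8.42 ± 0.236 in WT cells, and Uhrf1, which guides it, read 6.69 ± 0.436, 6.57 ± 0.482 and 6.64 ± 0.603 in the same order. Both were named after their values were seen. The 4 with the smallest p were Zbtb33, a reader of methylated DNA (0.57), Mbd4, a glycosylase of deaminated CpG sites (0.49), Mbd1, a methyl-CpG binding protein (0.51), and Idh1, an enzyme that makes the Tet cofactor 2-oxoglutarate (−0.22). KO and WT arrays overlapped for all 4.

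Of 10 other tested PRC2 genes, 4 were higher and 6 lower in KO than in WT cells and 0 were called (0 also at an unadjusted p under 0.05 in limma; median −0.20). Suz12, the subunit that PRC2 needs beside Eed, averaged 7.21 ± 0.190 in KO, 7.05 ± 0.326 in Het and 7.57 ± 0.342 in WT cells. Its Het arrays lay below its WT arrays, as for 3.9% of all tested genes. Jarid2, which recruits PRC2 to chromatin, averaged 6.83 ± 0.0929 in KO, 7.04 ± 0.460 in Het and 6.50 ± 0.252 in WT cells. Its KO arrays lay above its WT arrays, as for 6.51% of all tested genes. Phf1, an accessory subunit, differed by −0.62 and Ezhip, an inhibitor of PRC2, by −0.26. Ezhip read within the range of absent transcripts on every array but WT replicate 2, where it read 4.25.

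Of 17 other tested PRC1 genes, 8 were higher and 9 lower in KO cells with 0 called in limma, and 2 of 17 had an unadjusted p under 0.05, against 8.21% of all tested genes (median −0.01). Those were Pcgf2, a paralogue of Bmi1, at 5.91 ± 0.657 in KO, 5.55 ± 0.548 in Het and 5.03 ± 0.0473 in WT cells (adjusted p = 0.581), and Phc1, a polyhomeotic subunit, at 5.73 ± 0.865, 5.88 ± 0.366 and 4.74 ± 0.517 in the same order (adjusted p = 0.592). Rybp, a subunit of variant PRC1, and Rnf2, its catalytic ubiquitin ligase, differed by −0.79 and −0.50. Of 9 tested genes of the Bap1 deubiquitinase complex and the demethylases of the PRC2 mark, 7 were higher and 2 lower in KO cells with 0 called in limma. Kdm6b, one of these demethylases, was the 1 of 9 with an unadjusted p under 0.05 (8.21% of all tested genes), at 5.80 ± 0.350 in KO, 5.57 ± 0.372 in Het and 5.14 ± 0.264 in WT cells (adjusted p = 0.583), and its KO arrays lay above its WT arrays, as for 6.51% of all tested genes. Foxk1 (0.44), Hcfc1 (0.41) and Mbd6 (0.40), partners of Bap1, were next.

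Of 12 tested genes known as Polycomb targets in other settings, 2 were higher and 10 lower in KO than in WT cells, with a median of −0.40 against −0.04 over all tested genes; 0 were called in limma and 0 had an unadjusted p under 0.05. Cdkn2c, a cell cycle inhibitor, averaged 4.84 ± 0.105 in KO, 5.60 ± 0.403 in Het and 5.30 ± 0.169 in WT cells, and Gata4, a factor of heart and gut, 4.62 ± 0.103, 5.01 ± 0.298 and 5.05 ± 0.199 in the same order. KO arrays lay below WT arrays for 3 of the 12, against 7.32% of all tested genes: for both of these and for Hoxb13, which read 2.95 to 3.68 on all arrays, in the range of absent transcripts. Hoxa10, Hoxc13 and Igf2bp3 also read within that range on some arrays. The list's mean, untested genes included, was 4.64 to 4.75 on WT replicates 1 and 2 and Het replicate 2 (interquartile ranges 2.22 to 2.47). It was 4.16 to 4.31 on KO replicates 1 and 2, Het replicate 3 and WT replicate 3 (2.69 to 2.83). It was 4.53 on Het replicate 1 (2.53) and 4.33 on KO replicate 3 (2.42). The part of array spread in the list's differences was not tested. Pax5, the B cell factor, differed by −0.41. Cdkn2a, the target best known from Bmi1 loss, averaged 4.49 ± 0.181 in KO and 4.88 ± 0.423 in WT cells (−0.39, adjusted p = 0.729) and was named after its values were seen.

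**Figure D5:**
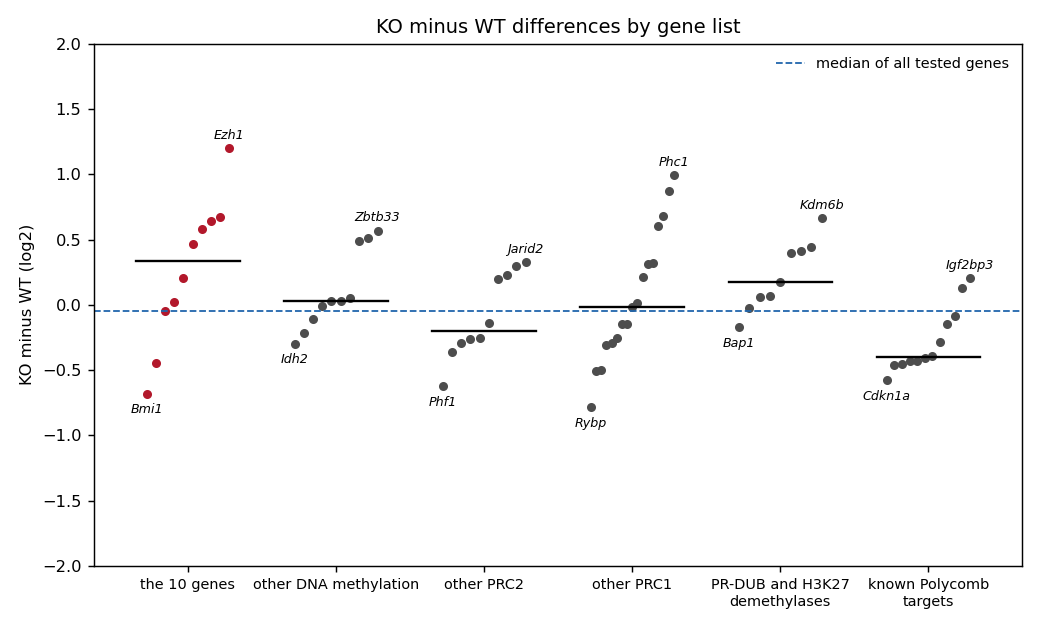
KO minus WT differences of log2 expression (y axis) for each tested gene of the 10 genes described and of 5 related lists (x axis); points are genes in order of size, solid bars are list medians and the dashed line is the median of all 16636 tested genes (−0.04). List medians run from −0.40 for known Polycomb targets to 0.34 for the 10 genes, and no gene shown passed the test.

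The genes most like each member over the 9 arrays were found among the 16635 other tested genes by Pearson's r, as a description. The nearest to Dnmt3a were Fah (r 0.968) and Gm5111 (0.943), and the nearest to Dnmt3b were Klhl8 (0.961) and Irgm1 (0.959). For Tet1 they were Uchl3 (0.935) and Gmeb1 (0.925), for Tet2 Gch1 (0.976) and Prmt1 (0.962), and for Tet3 Pi4ka (0.945) and Lamp1 (0.938). For Ezh1 they were Pcyt1b (0.969) and Ttc21b (0.947), for Ezh2 Tubb2a (0.916) and Tpmt (0.891), and for Eed Ywhaq (0.968) and Tmem222 (0.953). Bmi1 was nearest to Kdelr2 (0.947) and Myd88 (0.935), and Asxl1 to Foxp1 (0.973) and Apool (0.957). The highest of so many values over 9 arrays is high by selection. No member was among the 2 nearest of another; the closest pair within the 10 was Tet2 and Ezh1 (r 0.810), which share the low reading on WT replicate 1, followed by Eed and Bmi1 (0.771), which share the high reading on WT replicate 3.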

How the data were processed

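Total RNA of sorted HSCs was amplified (NuGEN Ovation Pico WTA V2), and each replicate was read on 1 Mouse Gene 2.0 ST array from Affymetrix, per the labels' protocols. The deposited values are log2 summaries of 41345 probe sets. Per the submitters' processing notes RMA made them, and its settings and the genome build are not stated there. RMA draws the arrays towards a common distribution, which can hide a shift shared by most genes. The deposited summaries still differed between arrays, with medians of 3.95 to 4.15 and interquartile ranges of 2.22 to 2.83. Probe sets were named through the platform annotation: 23521 had 1 symbol, 1814 several and 16010 were unlisted. Symbols were updated by gene ID for 23328 probe sets. Each gene took its single-symbol probe set with the highest mean (22180 genes).

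Genes whose mean lay at or above the 25th percentile (3.31) were tested, 16636 of them. lmFit and eBayes of limma 3.58.1 (R 4.3.3), with all 9 arrays and 3 group means, gave moderated tests with Benjamini-Hochberg adjustment, called under 0.05, after it was tested on simulated data. Exact permutation tests used scipy 1.17.1. Replicates are biological per the labels, and 3 per group limit the precision. The same-numbered arrays' deviations correlated by −0.19 to 0.23, so the numbers were not taken as pairs. The 10 genes were named by rule, the related lists through up to 4 genes each with the smallest p, and the most alike genes by Pearson's r. The members and lists were chosen with earlier results of these data known. Alternatives were other filters, normalization, probe set means, array weights, sex as a term, a replicate block, only the groups compared, and each array left out.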

Additional observations from a re-analysis of the deposited data

How the results depend on the processing

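None of the 10 genes passed the test in any setting tried; the smallest adjusted p was 0.252. Of 510 recomputed differences (30 differences, 17 settings each), 481 kept their sign and 29 turned it, none of those by more than 0.325 past 0, and 16 of the 30 differences never turned. With KO minus WT, limma called 7 genes (6 higher, 1 lower); it called 4 with genes at or above the median level (0 lower), 3 after a further quantile normalization (3 higher, 0 lower), 24 with array weights (22 higher, 2 lower), 3 with sex as a term (3 higher, 0 lower) and 1 with only the groups compared (1 higher, 0 lower). With the replicate number as a block (replicate block) it called 0 (0 higher, 0 lower). The main fit did not take the numbers as pairs, and whether same-numbered arrays shared a batch was not tested. Without 1 array it called 0 to 15 (0 to 15 higher, 0 to 1 lower). The test for any difference among genotypes called 8 genes with array weights and 0 to 2 without 1 array, against 0. The cause of these changes was not tested.

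Signs turned after a further quantile normalization for Dnmt3a KO minus WT (−0.17), Dnmt3b Het minus WT (−0.00574) and Ezh2 KO minus Het (−0.10). They turned with array weights for Eed KO minus WT (0.12), Dnmt3b Het minus WT (−0.0228), Dnmt3a KO minus Het (0.00149) and Ezh2 KO minus Het (−0.22), and with sex as a term for Dnmt3a KO minus WT (−0.00944). Without 1 array, KO minus WT ran from −0.14 to 0.16 for Dnmt3a, −0.15 to 0.64 for Ezh2 and −0.22 to 0.21 for Eed. KO minus Het ran from −0.29 to 0.045 for Dnmt3a, −0.46 to 0.10 for Bmi1, −0.12 to 0.21 for Tet1 and −0.33 to 0.47 for Ezh2. Het minus WT ran from −0.0217 to 0.29 for Dnmt3a, −0.015 to 0.295 for Dnmt3b, −0.0633 to 0.72 for Tet2, −0.12 to 0.41 for Tet3, −0.10 to 0.51 for Ezh2, −0.84 to 0.0583 for Bmi1 and −0.03 to 0.58 for Asxl1. The median of the 10 KO minus WT differences and the pairs on the same array were also recomputed without 1 array, chosen after seeing the data; none changed sign. For the Tet1 pairs the sign could not change, because their KO and WT arrays did not overlap. By another alternative added then, the number of the 10 genes whose KO and WT arrays did not overlap was 2 after a further quantile normalization and 3 to 6 without 1 array, against 3; it was 6 without WT replicate 2. Leaving out an array could not lower this number.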

Other observations

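Bmi1 is one of 6 Pcgf proteins, of which each PRC1 complex holds 1, and the paralogues were read side by side after their values were seen. Pcgf2, the closest relative of Bmi1, read 6.02, 6.50 and 5.20 on KO and 5.98, 5.73 and 4.93 on Het arrays. Its WT arrays read 5.05, 4.98 and 5.07. Its KO arrays thus lay above its WT arrays, as for 6.51% of all tested genes (limma adjusted p = 0.581). Pcgf5 read 6.66, 6.70 and 6.63 on KO arrays, above 5.99, 6.51 and 5.61 on Het arrays. KO and Het arrays did not overlap, in either direction, for 9.82% of all tested genes. WT arrays of Pcgf5 read 5.03, 7.29 and 5.86. Pcgf1, at 6.18, 5.27 and 3.14 on KO, 6.01, 6.65 and 5.49 on Het and 3.12, 6.56 and 5.83 on WT arrays, had SDs of 1.56 in KO and 1.81 in WT cells, above any difference between its genotype means. Pcgf3 and Pcgf6 differed by −0.50 and 0.68 between KO and WT cells, with overlapping arrays. None of the 6 passed the test.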
